A study of Mus musculus with 32 samples.

Results

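The heterogeneous nuclear ribonucleoprotein (hnRNP) H/F family was taken as the 4 genes *Hnrnph1*, *Hnrnph2*, *Hnrnph3* and *Hnrnpf*, chosen by name from the 23420 gene rows of striatal RNA-seq count tables. All 4 genes had a row and passed the filter on low counts. The tissue was pooled left and right punches of the striatum from mice aged about 50 days by the labels. The 8 B6.D2 congenic mice (Line 4a) were heterozygous for a segment of chromosome 11 from DBA/2J (D2) on an otherwise C57BL/6J (B6) background, and the 8 B6 mice were their littermates without the segment. Both genotypes were naïve, and neither carried a transgene. *Hnrnph1* lies in the D2 segment, and the other 3 members lie on other chromosomes, where both genotypes carry B6 alleles by design. The question was whether the level of *Hnrnph1*, or of its relatives, differed between genotypes. The number of reads counted on genes was between 19032826 and 33748353 per mouse.

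hnRNP H and F proteins bind runs of guanosines in RNA through quasi-RNA recognition motifs and regulate alternative splicing and the choice of polyadenylation site. *Hnrnph1* and *Hnrnph2* encode closely similar proteins, *Hnrnpf* a shorter relative with the same arrangement of RNA-binding domains, and *Hnrnph3* a relative that lacks the N-terminal RNA-binding domain. In the brain they are expressed in neurons and glia, where they take part in the splicing of transcripts such as that of the NMDA receptor subunit gene *Grin1*.

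The family shares long stretches of coding sequence, so the part of each gene that a read of 50 bases can be assigned to was examined before the levels. Over the aligned bases, the coding sequence of *Hnrnph1* was 85.3% identical to that of *Hnrnph2*, 77.3% identical to that of *Hnrnpf* and 72.6% identical to that of *Hnrnph3*. The lowest identity in the family, 68.2%, was between *Hnrnph3* and *Hnrnpf*. The 30 coding bases with the most positions shared by all members, read 5′ to 3′ from the GENCODE transcripts of NCBIM37, are shown because they are the closest that the 4 genes come to being indistinguishable. Capitals mark bases that differ from *Hnrnph1*.
*Hnrnph1*: gaaacacaaggaaagaatagggcacaggta
*Hnrnph2*: gaaacacaaggaaagaatagggcaTaggta
*Hnrnph3*: gaaacacaaggaaagaatagggcacaggta
*Hnrnpf*: gaaGcacaaggaGagaatagggcacaggta
*Hnrnph1* and *Hnrnph3* did not differ in this window, which starts at base 510 of the *Hnrnph1* coding sequence and at base 225 of the *Hnrnph3* coding sequence. The longest run of identical coding bases between any pair was 36, between *Hnrnph1* and *Hnrnph3*, and it was 34 between *Hnrnph1* and *Hnrnph2*. Both are shorter than a read, and no window of 50 bases was identical between any pair of members.

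The members differed in how much of their sequence recurs outside the family. Of 2509 distinct 50-base windows in the coding transcripts of *Hnrnph1*, 88.3% occurred nowhere else in the genome and on no exon of another counted gene, and 294 had an exact copy elsewhere. Of these 294 windows, 251 recurred on chromosome 5 where the long noncoding RNA gene Gm17627 overlaps the protein coding gene *Setd1b*. For *Hnrnph2* the unique share was 67.7% of 4507 windows, with 894 windows recurring on chromosome 3 outside any annotated gene and 424 in the chromosome 3 pseudogene Gm8775. For *Hnrnpf* the unique share was 31.9% of 2853 windows, since 1462 windows recurred on chromosome 13 outside any annotated gene, 1365 in the chromosome 1 pseudogene Gm6430, 866 on chromosome 4 where the pseudogene Gm12435 overlaps the protein coding gene *Invs*, a further 525 elsewhere in *Invs*, and 556 in the X chromosome pseudogene Gm7803. *Hnrnph3* had no copy elsewhere, but 2379 of its 3151 exon bases, 75.5%, also belong to an exon of *Rufy2*, a gene that overlaps it. Counting ignored strand and dropped any read lying on exons of both genes. With the exons of NCBIM37 and GENCODE this would leave 25.7% of the *Hnrnph3* windows. Whether reads that match a copy elsewhere were lost depends on how the aligner ranked the copies, and was not tested. These shares were computed on the NCBIM37 reference genome, which is that of B6, with GENCODE exons. The counts were made on mm10 with another gene annotation, so the shares that applied in counting can differ. The shares bear on the comparison of levels between genes.

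**Figure D1:**
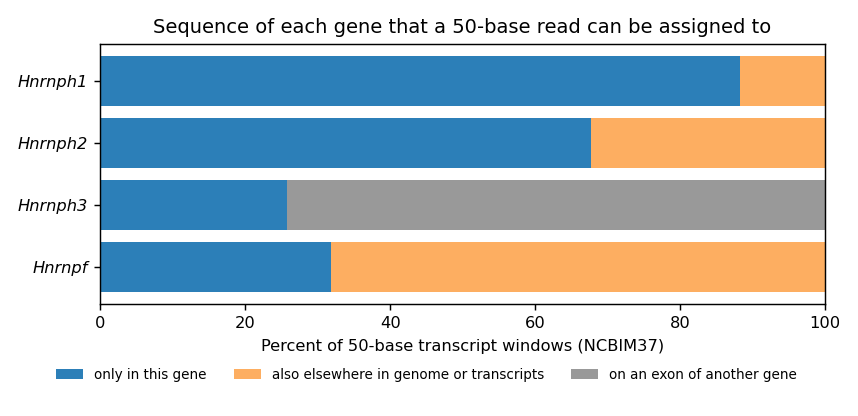
Share of the 50-base windows of each hnRNP H/F gene (horizontal axis, percent of distinct windows in its coding transcripts on NCBIM37) found only in that gene, found also elsewhere, or lying on an exon of another counted gene. Most of *Hnrnph1* (88.3%) is unique, most of *Hnrnpf* is copied elsewhere, and 74.3% of the *Hnrnph3* windows lie on exons of *Rufy2*.

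A pair of libraries stood apart from the rest in measures of the whole library. In B6 mouse 8, 11.3% of the records tallied in counting lay on no counted exon, against 14.8% to 15.9% in the other B6 mice. A record is 1 reported alignment, so a read with more than 1 alignment can be tallied more than once. In Line 4a mouse 1, 10.2% of the records lay on no counted exon, against 14.5% to 15.6% in the other Line 4a mice. Of its records, 27.3% came from reads with more than 1 alignment, against 20.4% to 21.1%. These libraries held extreme values of several members. *Hnrnph1* was lowest of all 16 mice in B6 mouse 8 and highest in Line 4a mouse 1, whereas the same 2 libraries held the 2 lowest values of *Hnrnph3* and the 2 highest of *Hnrnpf*. The part of library quality in the differences below was not tested, and values without both libraries, an alternative chosen after seeing the data, are given beside the results. The defining genes of striatal projection neurons were present in every mouse, with summed levels of 5936 to 8759 CPM, normalised read counts scaled to library size, in B6 and 6473 to 7560 CPM in Line 4a mice. None of the 10 listed genes passed an unadjusted p of 0.05. Of 9 cortical glutamatergic marker genes, 7 were lower in Line 4a at an unadjusted edgeR p under 0.05, against 5.14% of all genes tested. None of the 9 passed an FDR of 5%. The summed level of these cortical markers was 441 to 715 CPM in B6 and 288 to 623 CPM in Line 4a mice, and no marker was at 0 throughout. In these bulk samples, fewer cells of a type and less RNA per cell cannot be told apart.

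*Hnrnph1*, the member inside the congenic segment, lies on chromosome 11 from 50375257 to 50386528 (GRCm38.p6). Its level was lowest at 189 CPM, had a median of 248 CPM and was highest at 269 CPM in B6 mice. In Line 4a mice the lowest, median and highest values were 251, 263 and 293 CPM. The ranges overlapped, with 5 of 8 B6 mice below every Line 4a mouse. The mean was 8.54% higher in Line 4a, at 265 ± 13.8 CPM against 244 ± 24.7 CPM (SD, n = 8 each). On the log2 scale the difference was 0.12 (SE 0.06, 95% interval -0.0078 to 0.24), and it did not pass edgeR's quasi-likelihood test with Benjamini-Hochberg adjustment over 15589 genes (adjusted p = 0.522). The exact two-sided permutation test of the 16 mice on log2 CPM gave an unadjusted p = 0.0305. Without B6 mouse 8 the log2 difference was 0.07 (SE 0.04), and without both outlying libraries it was 0.05 (SE 0.03, unadjusted edgeR p = 0.162). Each of the 8 congenic values exceeded the B6 median, as was so for 4.28% of all genes tested.

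*Hnrnph2*, the closest relative by sequence, lies on the X chromosome from 134601179 to 134607060. Its level ran from 129 to 147 CPM with a median of 133 CPM in B6 mice. In Line 4a mice it ran from 124 to 151 CPM with a median of 129 CPM. The groups overlapped, although 6 of the Line 4a mice were at or below the B6 median and 3 were below every B6 mouse. The means were 135 ± 6.46 CPM in B6 and 132 ± 8.66 CPM in Line 4a (SD, n = 8 each). The log2 difference was -0.03 (SE 0.04, 95% interval -0.12 to 0.06) with an adjusted p of 0.828 in edgeR's quasi-likelihood test. The highest value of all 16 mice belonged to Line 4a mouse 1, and without that library the difference was -0.06 (SE 0.03, unadjusted edgeR p = 0.0662, adjusted p = 0.396). Without B6 mouse 3, the highest B6 mouse, it was -0.01, and these were the ends of the range over all mice left out in turn.

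*Hnrnpf* lies on chromosome 6 from 117900340 to 117925622. B6 mice ranged from 87.1 to 101 CPM with a median of 91.5 CPM, and Line 4a mice from 88.5 to 108 CPM with a median of 92.3 CPM. The ranges lay almost on top of each other, and the highest mouse of each genotype was the outlying library. The mean was 92.5 ± 4.63 CPM in B6 and 94.7 ± 6.35 CPM in Line 4a (SD, n = 8 each). The log2 difference of 0.03 (SE 0.05, 95% interval -0.06 to 0.13) had an adjusted p of 0.821 in the same edgeR test. Without Line 4a mouse 1 it was 0.0018 (SE 0.03).

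*Hnrnph3* lies on chromosome 10 from 63014664 to 63023980, and its span overlaps that of *Rufy2* by 2546 bp. It was the sparsest member, with 173 to 336 reads per mouse. B6 mice ranged from 6.91 to 10.2 CPM with a median of 9.19 CPM, and Line 4a mice from 6.43 to 10.8 CPM with a median of 9.00 CPM. The lowest mouse of each genotype was again the outlying library. The means were 8.98 ± 0.992 CPM in B6 and 8.95 ± 1.26 CPM in Line 4a (SD, n = 8 each). The log2 difference was -0.0054 (SE 0.09, 95% interval -0.20 to 0.19, edgeR adjusted p = 0.988), so its interval was the widest of the family. Counting error alone gives a coefficient of variation of 6.20% at this depth, against 11.04% between B6 mice and 14.1% between Line 4a mice. For *Hnrnph1* counting error was 1.16%, and the spread between mice set the precision.

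**Figure D2:**
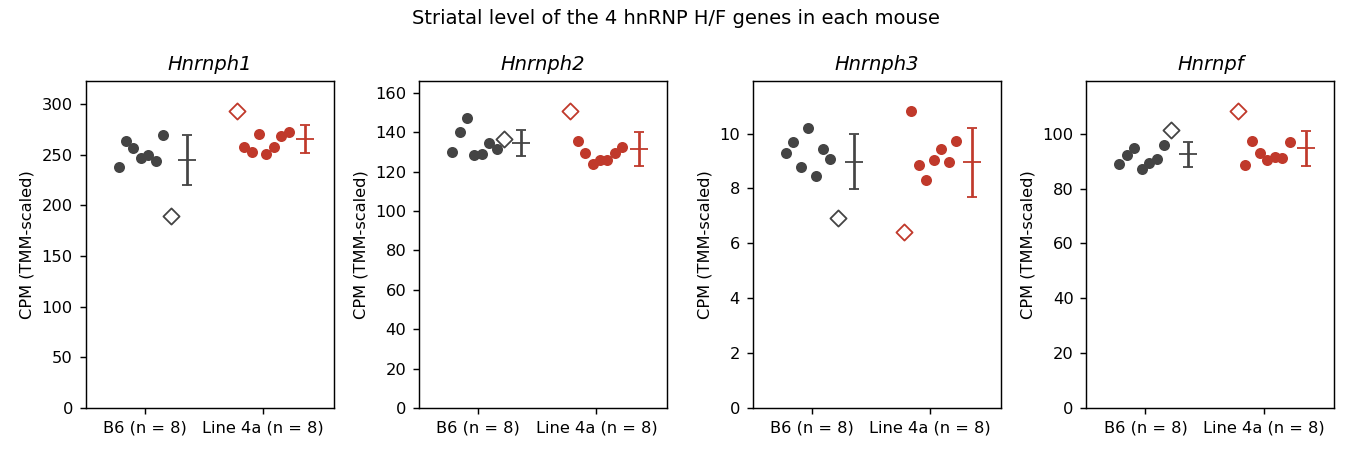
Level of each hnRNP H/F gene (vertical axis, TMM-scaled CPM, starting at 0) in every B6 (dark) and Line 4a (red) mouse, with the mean and SD at the right of each group. Open diamonds are B6 mouse 8 and Line 4a mouse 1, which lie at or near the extremes of *Hnrnph1*, *Hnrnph3* and *Hnrnpf*.

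None of the 4 members was among the genes past an FDR of 5%, of which there was 1 in the whole table, 0.00641% of the genes tested. At an unadjusted p under 0.05 the table held 1559 genes, 10% of those tested, and again no member was among them. The libraries had been run on lanes 5 and 6 or on lanes 7 and 8, with 4 mice of each genotype on each pair of lanes. *Hnrnph1* was higher in Line 4a on both pairs, by 0.10 (SE 0.08) and 0.14 (SE 0.09) on the log2 scale, and *Hnrnph2* was lower on both, by -0.01 (SE 0.08) and -0.05 (SE 0.04). For *Hnrnph3* the estimates were -0.14 (SE 0.15) and 0.14 (SE 0.10), and for *Hnrnpf* 0.10 (SE 0.08) and -0.03 (SE 0.05). A test of the interaction of genotype and lane pair was not passed by any member (edgeR p adjusted over all genes, 0.950 to 0.964). Lanes 7 and 8 minus lanes 5 and 6, the estimates were 0.04 (SE 0.12) for *Hnrnph1* and -0.03 (SE 0.09) for *Hnrnph2*. They were 0.28 (SE 0.19) for *Hnrnph3* and -0.12 (SE 0.09) for *Hnrnpf*. With SEs of this size, the test does not show that the lane pairs were alike.

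Ratios between members within a library do not depend on how libraries are scaled, and they ask whether *Hnrnph1* differed relative to its relatives. The *Hnrnph1* level was known to be higher in Line 4a when these ratios were chosen. *Hnrnph1* had 1.81 times as many reads as *Hnrnph2* in B6 mice and 2.02 times as many in Line 4a mice. The log2 ratio was 0.85 ± 0.17 in B6 mice, ranging from 0.47 to 1.03, and 1.01 ± 0.06 in Line 4a mice, ranging from 0.93 to 1.12 (SD, n = 8 each). Each of the 8 congenic ratios exceeded the B6 median, and the ranges overlapped. The difference of 0.16, about the size of the SD between B6 mice, passed an exact two-sided permutation test (p = 0.00699, Benjamini-Hochberg adjusted over the 3 ratios p = 0.0210). Without B6 mouse 8 the difference was 0.10 (exact permutation p = 0.0140, adjusted p = 0.0420), and without both outlying libraries it was 0.11 (exact permutation p = 0.0134, adjusted p = 0.0402). Within lane pairs it was 0.11 and 0.20, each with an exact permutation p of 0.0571 at 4 mice per genotype, where the smallest p possible is 0.0286. How many other pairs of genes would reach such a p was not tested, so the result is not shown to be particular to this pair. Of all genes taken singly, 10% had an unadjusted edgeR p under 0.05.

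The other ratios did not pass the test. The log2 ratio of *Hnrnph1* to *Hnrnpf* was 1.40 ± 0.20 in B6 and 1.49 ± 0.06 in Line 4a (SD, n = 8 each, exact permutation p = 0.222, adjusted p = 0.238). The difference of 0.09 came to 0.02 without B6 mouse 8, whose ratio was 0.90 when the other B6 mice lay between 1.42 and 1.51. The log2 ratio of *Hnrnph1* to *Hnrnph3* was 4.77 ± 0.11 in B6 and 4.90 ± 0.28 in Line 4a (SD, n = 8 each, exact permutation p = 0.238). This difference of 0.13 came to 0.05 without Line 4a mouse 1. On lanes 5 and 6 and on lanes 7 and 8 the differences were 0.0049 and 0.18 for *Hnrnpf* and 0.26 and 0.0082 for *Hnrnph3*.

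**Figure D3:**
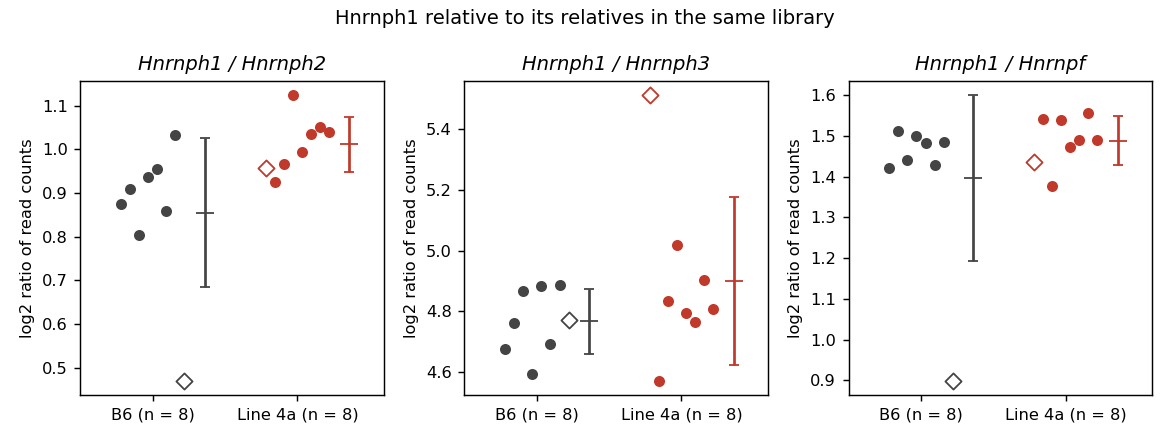
Log2 ratio of *Hnrnph1* reads to the reads of each relative in the same library (vertical axes, which do not start at 0) for B6 (dark) and Line 4a (red) mice, with mean and SD. The *Hnrnph1* to *Hnrnph2* ratio averaged 0.85 in B6 and 1.01 in Line 4a, and the open diamonds, B6 mouse 8 and Line 4a mouse 1, lie farthest out in several panels.

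As a share of all reads on the 4 genes, *Hnrnph1* made up 50.8% ± 3.03 in B6 and 53.0% ± 0.896 in Line 4a (SD, n = 8 each). *Hnrnph2* made up 28.1% ± 1.63 and 26.3% ± 0.764, *Hnrnpf* 19.3% ± 1.66 and 18.9% ± 0.6004, and *Hnrnph3* 1.87% ± 0.177 and 1.80% ± 0.302. *Hnrnph1* therefore supplied the largest part of the family's reads in every mouse, from 43.6% in the lowest B6 mouse to 54.5% in the highest Line 4a mouse. The summed level of the family was 481 ± 25.3 CPM in B6 and 501 ± 25.7 CPM in Line 4a (SD, n = 8 each). These shares are given as a description, with no test.

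Levels between genes were compared per length, with lengths from NCBIM37 and GENCODE rather than from the annotation used in counting. Per kb of annotated exon, *Hnrnph1* was at 41.8 ± 4.22 CPM in B6 and 45.4 ± 2.37 CPM in Line 4a (SD, n = 8 each). *Hnrnpf* followed at 32.9 ± 1.65 and 33.7 ± 2.26 CPM per kb, *Hnrnph2* at 30.8 ± 1.48 and 30.1 ± 1.98 CPM per kb, and *Hnrnph3* at 2.85 ± 0.315 and 2.84 ± 0.401 CPM per kb. *Hnrnpf* and *Hnrnph2* overlapped on this scale. *Hnrnph1* and *Hnrnph3* were at the ends of the order, although the lowest *Hnrnph1* value, 32.3 CPM per kb in B6 mouse 8, fell within the range of *Hnrnpf*. Per kb of exon outside *Rufy2*, *Hnrnph3* was at 11.6 ± 1.28 CPM in B6 mice. Per kb of unique sequence, counting each unique window as a base, the B6 means were 110 ± 11.1 CPM for *Hnrnph1*, 102 ± 5.09 CPM for *Hnrnpf*, 44.1 ± 2.12 CPM for *Hnrnph2* and 12.4 ± 1.37 CPM for *Hnrnph3*. On that scale *Hnrnph1* and *Hnrnpf* overlapped and *Hnrnpf* lay above *Hnrnph2*. The 2 scales also differ in the transcripts used, since annotated exon covered all transcripts of a gene and windows its coding transcripts alone. *Hnrnph1* had 5842 exon bases but 2509 windows, unique or not, and *Hnrnpf* had 2813 and 2853. The higher value of *Hnrnph1* per kb of unique sequence therefore also reflects exon outside its coding transcripts. The position of *Hnrnpf* thus depends on the scale, and in part on whether reads matching its copies were counted. *Hnrnph3* had the lowest mean of the family on each of these scales.

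Among 32 hnRNP genes ranked per kb of exon over all 16 mice, *Hnrnph1* was 10th, *Hnrnpf* 15th, *Hnrnph2* 19th and *Hnrnph3* last. *Hnrnph1* did not differ beyond its range from *Hnrnpa0*, the neighbour above it, at 46.7 CPM per kb. The most abundant of the other genes were *Hnrnpa2b1* at 132 CPM per kb, *Hnrnpk* at 98.1 CPM per kb and *Pcbp1* at 75.7 CPM per kb. The least abundant were *Hnrnpa1* at 4.69, *Ptbp3* at 6.36 and *Ptbp1* at 7.54 CPM per kb. For *Hnrnpa1* only 19.6% of the windows are unique, and per kb of unique sequence it was at 23.0 CPM. On the scale of unique sequence, which covers coding transcripts alone, *Hnrnph1* ranked 5th, *Hnrnpf* 7th, *Hnrnph2* 19th and *Hnrnph3* 30th.

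**Figure D4:**
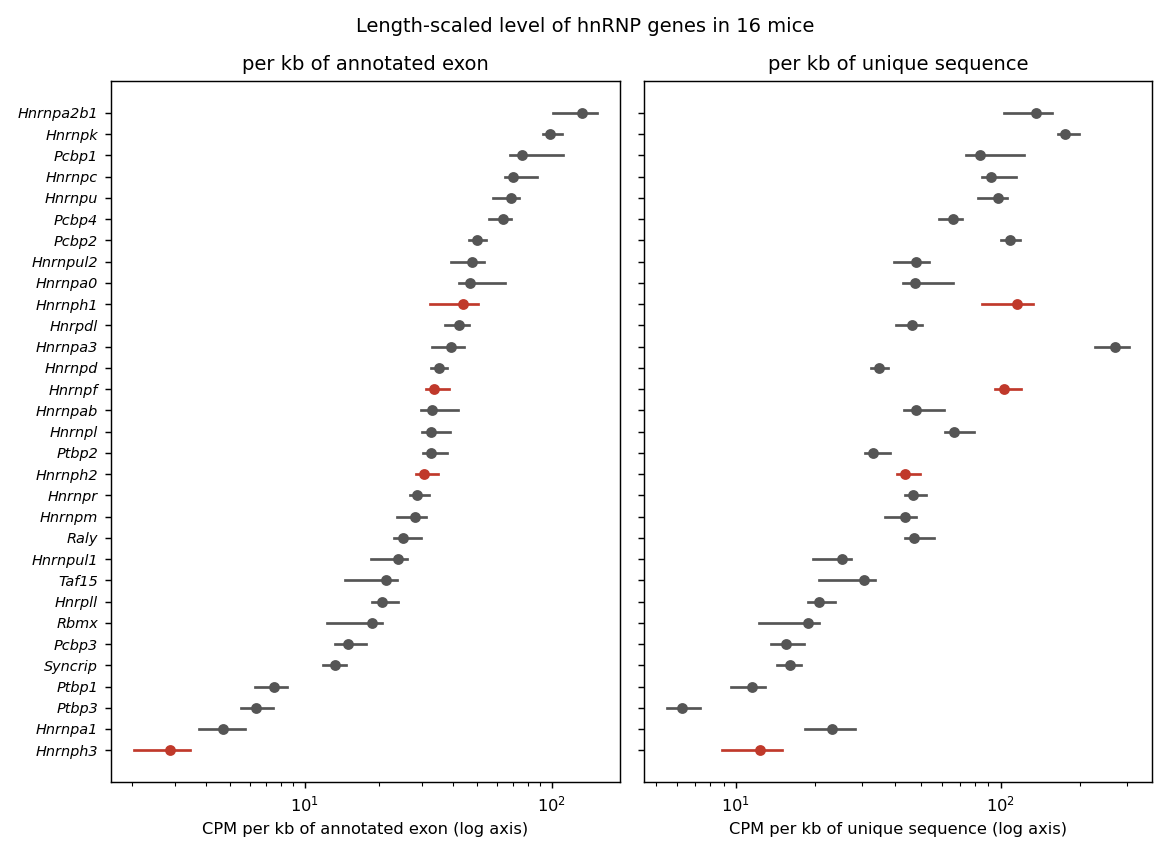
Level of hnRNP genes scaled by annotated exon length (left, log axis) and by the number of unique 50-base windows in coding transcripts (right, log axis). The mean over 16 mice is a point and the lowest to highest mouse a line. The 4 hnRNP H/F genes are red. *Hnrnph3* is lowest on the left at 2.85 CPM per kb, and *Hnrnpf* moves up beside *Hnrnph1* on the right.

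The other hnRNP genes, RNA-binding proteins that package and process nuclear transcripts, were examined as a list of 28 genes. None passed an FDR of 5% with edgeR or with DESeq2. Of the 28 genes, 2 were higher in Line 4a at an unadjusted edgeR p under 0.05, among them *Taf15*, an RNA-binding protein of the general transcription machinery, and none was lower. Over all genes 4.86% were higher and 5.14% lower at that threshold. The median log2 difference of the list was 0.02, against 0.01 over all genes tested. *Taf15* ran from 42.7 to 66.7 CPM in B6 and from 63.1 to 68.9 CPM in Line 4a mice. The log2 difference was 0.15 (SE 0.07, unadjusted edgeR p = 0.0352), and it was 0.09 without B6 mouse 8, the lowest mouse. *Ptbp1*, a polypyrimidine tract-binding splicing repressor, had a log2 difference of 0.12 (SE 0.06, unadjusted edgeR p = 0.0519). B6 mouse 8 held the lowest B6 value of *Taf15* and *Ptbp1*, as it did for *Hnrnph1*.

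**Figure D5:**
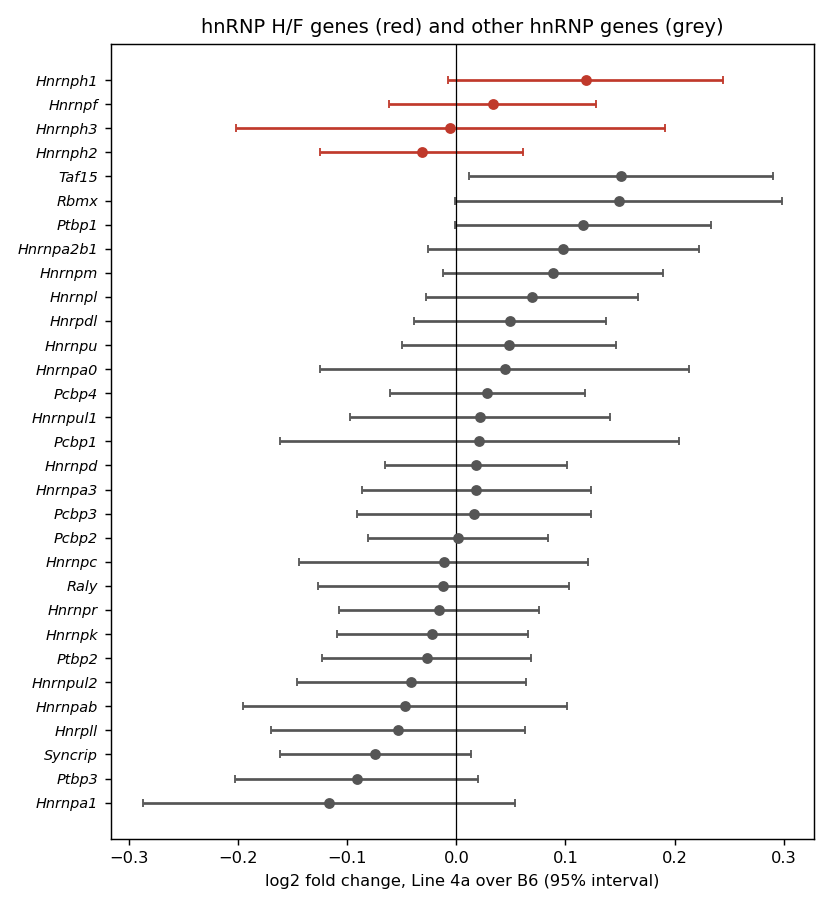
Log2 fold change of Line 4a over B6 (horizontal axis) with the 95% interval of edgeR's quasi-likelihood fit, for the 4 hnRNP H/F genes (red) and other hnRNP genes (grey, ordered by value). The interval of *Taf15* lies above 0 before adjustment, and that of *Hnrnph1* runs from -0.0078 to 0.24.

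A list of 11 relatives and partners held *Grsf1*, an RNA-binding protein with related quasi-recognition motifs, the nuclear import receptors that carry hnRNPs, the Rbfox and Celf splicing factors, and others. None passed an FDR of 5% with edgeR or with DESeq2, none had an unadjusted edgeR p under 0.05, and the median log2 difference was -0.02. *Tnpo1*, an import receptor, had the lowest p, with 48.7 to 63.3 CPM in B6 and 17.9 to 55.7 CPM in Line 4a mice. The value of 17.9 CPM was that of Line 4a mouse 1. The log2 difference of -0.27 (SE 0.15, unadjusted edgeR p = 0.0970) came to -0.15 (SE 0.06, unadjusted edgeR p = 0.0162, adjusted p = 0.297) without that library. That fit held 2087 genes at an unadjusted edgeR p under 0.05, against 1559 with all mice. *Rbfox2*, a splicing factor, was also lowest in Line 4a mouse 1, at 208 CPM, and its log2 difference was -0.08 (SE 0.07), or -0.02 (SE 0.03) without that library. *Grsf1* was at 105 ± 1.54 CPM in B6 and 108 ± 11.03 CPM in Line 4a (SD, n = 8 each), with the highest value, 133 CPM, again in Line 4a mouse 1.

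Of 5 genes whose transcripts are known splicing targets of hnRNP H/F proteins, none passed an FDR of 5% with edgeR or with DESeq2, and the median log2 difference was 0.00040. These are gene totals, and the counts hold no information on splice forms. *Oprm1*, the mu opioid receptor gene, had an unadjusted edgeR p of 0.0199 with a log2 difference of -0.80 (SE 0.31, adjusted p = 0.438). It was near the limit of detection, with 5 to 49 reads per mouse, 0.47 to 1.57 CPM in B6 and 0.16 to 1.15 CPM in Line 4a mice. The lowest Line 4a value was in mouse 1 and the highest B6 value in mouse 8, and without both the difference was -0.56 (SE 0.28, unadjusted edgeR p = 0.0608). *Src*, a tyrosine kinase gene, had a log2 difference of -0.07 (SE 0.05). *Rufy1*, which ends 2757 bp from the end of *Hnrnph1* on GRCm38.p6 and lies in the same D2 segment, was at 34.9 ± 1.51 CPM in B6 and 34.9 ± 1.69 CPM in Line 4a (SD, n = 8 each), a log2 difference of 0.0017 (SE 0.04).

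Members were next compared across the 16 mice, with 6 pairs tested. The largest correlation of log2 CPM was between *Hnrnph3* and *Hnrnpf*, with Pearson's r = -0.80 (permutation p = 0.00062, adjusted p = 0.00372) and Spearman's rho = -0.56 (permutation p = 0.0266, adjusted p = 0.160). The r was -0.78 within B6 mice and -0.83 within Line 4a mice, and -0.92 and -0.53 on the lane pairs. It was -0.35 without the 2 mice farthest from the median of *Hnrnph3*, which were B6 mouse 8 and Line 4a mouse 1, so the relation rests on those libraries. *Hnrnph2* and *Hnrnpf* had r = 0.59 (permutation p = 0.0185, adjusted p = 0.0554) and rho = 0.42 (permutation p = 0.106), and r = 0.25 without the 2 mice farthest from the median of *Hnrnph2*. For *Hnrnph1* and *Hnrnph2*, r was 0.13 (permutation p = 0.612) and rho was 0.10 (permutation p = 0.703). Their r was 0.04 within B6 and 0.72 within Line 4a mice, 0.55 on lanes 5 and 6 and -0.54 on lanes 7 and 8. Without both outlying libraries it was 0.03. For *Hnrnph1* and *Hnrnph3*, r was 0.16 (permutation p = 0.481) over all mice but 0.79 within B6 and -0.73 within Line 4a mice, where the outlying library held the end of each trend. *Hnrnph1* and *Hnrnpf* had r = 0.08 (permutation p = 0.748) and rho = 0.43 (permutation p = 0.1001), with r = -0.50 within B6 and 0.76 within Line 4a mice, and r was 0.59 without both outlying libraries. *Hnrnph2* and *Hnrnph3* had r = -0.40 (permutation p = 0.117), which turned to 0.09 without the 2 mice farthest from the median of *Hnrnph2* and to 0.24 without both outlying libraries. No pair other than *Hnrnph3* and *Hnrnpf* passed the adjustment over the 6 pairs by Pearson's r, and none did by Spearman's rho.

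The genes most like each member were found as those with the highest Pearson's r of log2 CPM, centred within genotype, among 10320 other genes with a mean of at least 10 CPM in the 16 mice, or 10321 for *Hnrnph3*, which is itself below that level. These correlations are descriptions with no test. For *Hnrnph1* they were *Tra2a*, a serine/arginine-rich splicing activator, with r = 0.92, *Lrif1* with r = 0.92 and *Mapk1ip1* with r = 0.92. For *Hnrnph2* they were *Ifrd1*, *Rbm17*, a spliceosome component, and *Rala*, a small GTPase, each with r = 0.93 to 0.94. For *Hnrnpf* they were *Atg3*, an autophagy conjugating enzyme, with r = 0.93, *Tmed2* with r = 0.92 and *Impa1* with r = 0.92. For *Hnrnph3* they were *Bms1*, a ribosome assembly factor, with r = 0.91, and *Cebpz* and *Aars2*, both with r = 0.88. The genes named are the top of long lists. An r over 0.8 was reached by 116 genes for *Hnrnph1*, 510 for *Hnrnph2*, 358 for *Hnrnpf* and 106 for *Hnrnph3*. Without B6 mouse 8 and Line 4a mouse 1 the r values were 0.48 to 0.64 for the genes named beside *Hnrnph1* and 0.41 to 0.59 for those beside *Hnrnph3*, over 14 mice. They were 0.88 to 0.91 for those beside *Hnrnph2* and 0.76 to 0.87 for those beside *Hnrnpf*. No member was among the genes most like another.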

How the data were processed

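The authors aligned 50-base single-end reads with TopHat and bowtie2 2.2.2 to mm10, and deposited unnormalized read counts per gene and lane from htseq-count 0.6.1p1 in union mode without strand. Their deposited table of their own genotype comparison (fold change, p-value and FDR) was not used. Lane files were summed per mouse (31 files, 16 mice, with 1 lane file for B6 mouse 7). The 5 rows that name no gene were left out.

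Counts were filtered with filterByExpr, scaled by TMM and tested with edgeR's quasi-likelihood test (edgeR 4.0.16, R 4.3.3) with Benjamini-Hochberg adjustment over 15589 genes. The SE of a log2 difference was its size over the square root of F, and a prior count of 0.5 was added for log2 CPM. Single values were compared with exact two-sided permutation tests (scipy 1.17.1). The edgeR fit alone was run on simulated counts, and the permutation tests, ratios, correlations and windows were not. P-values measure the spread between mice. Home cage, which the study's own model included, is not in the labels and was not fitted. Windows of 50 bases (coding transcripts) and exon lengths (all transcripts) came from NCBIM37 with GENCODE, and printed positions from RefSeq on GRCm38.p6. The authors counted on mm10 with another gene annotation, so lengths, shares and ranks per kb are approximate for these counts.

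The members and gene lists were chosen with earlier results of these data known. Named genes were the members, *Rufy1*, *Grsf1*, in each hnRNP list all genes with an unadjusted p under 0.05 and, where these were fewer than 3, the 3 with the lowest p, the 3 most and 3 least abundant other hnRNP genes, and the 3 genes most like each member. *Hnrnpa0* and the copies of the members were named after their values were seen. Genes of these lists that the rule names but that are not reported here remain in the counts and medians. Marker lists for oligodendrocytes, astrocytes, microglia, endothelial cells and choroid plexus held 1 gene at an unadjusted p under 0.05, of oligodendrocytes, and none past an FDR of 5%. Alternatives were other scalings, filters, tests, lanes, covariates and each mouse left out.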

Additional observations from a re-analysis of the deposited data

Results flagged for a closer look

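In 22 group-wise searches for a value that stands apart by Dixon's test, over the members, their ratios and sum, and the library measures, 11 values were flagged. Chance flags about 1 in 20 groups, but these searches share values, so 1 library can be flagged many times and the 2 rates are not comparable. The flagged values all came from B6 mouse 8 or Line 4a mouse 1. In B6 mouse 8 *Hnrnph1* was at 189 CPM, with the other B6 mice at 238 to 269 CPM. Its log2 ratio of *Hnrnph1* to *Hnrnph2* was 0.47 (others 0.80 to 1.03), and its log2 ratio of *Hnrnph1* to *Hnrnpf* was 0.90 (others 1.42 to 1.51). The same library had 11.3% of records on no counted exon (others 14.8% to 15.9%) and 0.933% of records on more than 1 gene (others 0.841% to 0.873%). In Line 4a mouse 1 *Hnrnph2* was at 151 CPM (others 124 to 136 CPM), *Hnrnpf* at 108 CPM (others 88.5 to 97.4 CPM) and the summed family at 559 CPM (others 476 to 512 CPM). This library had 27.3% of records from reads with more than 1 alignment (others 20.4% to 21.1%). It had 10.2% of records on no counted exon (others 14.5% to 15.6%) and 1.07% on more than 1 gene (others 0.824% to 0.880%). The part of these library measures in the levels of the members was not tested.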

How the results depend on the processing

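*Hnrnph1* was higher in Line 4a and not past an FDR of 5% under all 30 alternatives, with log2 differences of 0.05 to 0.14. The count of called genes, 1 in the main test, was 25 with DESeq2, 20 with edgeR's likelihood ratio test, 2 with lane pair as a covariate, 7 without the 2 outlying libraries, 1 to 4 with each mouse left out (4 without Line 4a mouse 1), and 0 within lanes 5 and 6, within lanes 7 and 8 and with the cortical marker score as a covariate (500, 1407 and 389 genes at an unadjusted p under 0.05). The members and the 3 hnRNP lists had no call under any of them. *Hnrnph3* turned sign, with log2 differences of 0.0054 under upper-quartile scaling, 0.0021 by total count, 0.14 on lanes 7 and 8, 0.048 with the cortical score, 0.00048 without the 2 outlying libraries, and -0.056 to 0.051 with each mouse left out. *Hnrnpf* was at -0.033 on lanes 7 and 8, and *Hnrnph2* at 0.015 with the cortical score. *Rufy1* was at -0.0010 under RLE scaling, -0.0015 without a filter, -0.0079 on the second lane alone, -0.023 on lanes 5 and 6, -0.048 with the cortical score, and -0.014 to 0.016 with each mouse left out. *Grsf1* was at -0.0083 without the 2 outlying libraries and -0.0052 to 0.066 with each mouse left out. The cause of these shifts was not tested. The log2 ratio of *Hnrnph1* to *Hnrnph2* differed by 0.11 on lanes 5 and 6 and 0.20 on lanes 7 and 8 with an adjusted p of 0.171 in each, where fewer mice were compared, and by 0.10 to 0.18 with each mouse left out (exact permutation tests, adjusted p under 0.05 in all 16).

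Mice with the same number shared a pair of lanes with 3 other numbers, and the labels give no closer link. The correlation of their deviations was -0.12 to 0.36, over 0.1 in 3 of 8 pairs, and not every mouse correlated best with its own number. With the replicate number as a block, 0 genes were called (1377 at an unadjusted p under 0.05), *Hnrnph1* had a log2 difference of 0.12, and the *Hnrnph1* to *Hnrnph2* ratio differed by 0.16 (exact sign-flip p = 0.00781, adjusted p = 0.0234). Among the members, counting error was largest for *Hnrnph3*, at 173 to 336 reads per mouse.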
